A study of Danio rerio with 6 samples.

Results

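The keratin entries of the count table were taken as every entry whose gene name starts with krt or is cyt1 or cyt1l, further entries of a symbol, marked by a numeric suffix, included. This gave 36 of 53709 entries, which carry 25 symbols. The symbols krtcap2 and krtcap3 are keratinocyte-associated genes by name and do not encode keratins, which leaves 34 keratin entries of 23 symbols. The libraries came from the tail fin blastema, the growth zone of a cut fin, of male zebrafish (Danio rerio), taken 4 days after the fin was cut. Fins were cut in both groups, and fish were kept in 150 mL of liquid per beaker: control fish in distilled water, and the fish called ZnO here in water with 2 mg/L Pro-ZnO, zinc oxide nanoparticles prepared with extract of propolis, a bee product. Per the labels each group had 5 fish, in triplicate; strain, age and the relation of fish to the 3 libraries of each group are not stated, so p-values measure only the spread between these libraries. Neither group was given propolis extract or dissolved zinc alone, so these parts of the treatment cannot be told apart.

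Keratins are the intermediate filament proteins of epithelia. A filament is built from pairs of 1 type I and 1 type II chain, so an epithelial cell makes both, and different layers and states of the epidermis use different pairs. In the zebrafish fin the cut surface is covered within hours by a multilayered wound epidermis, which stays over the blastema while the fin regrows, and tissue taken as blastema includes it. Among the zebrafish genes, krt4, krt5 and krt8 are type II, and the other keratin symbols here are type I or, for krt222, a relative of type I.

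Libraries held 26624174 to 31712994 counts, and 1 count corresponded to 0.0316 to 0.0383 CPM (counts scaled to 1000000 per library and between libraries by TMM). Markers of the labelled tissue were read as well. They were chosen after values were seen, and no other tissue was there for comparison. The epidermal genes epcam and tp63, which encode an epithelial adhesion protein and the transcription factor of basal keratinocytes, lay at 249 to 339 CPM and at 143 to 221 CPM over all 6 libraries. The blastema transcription factor gene msx1b lay at 69.6 to 102 CPM. In such mixed tissue, fewer cells of a type and less RNA per cell cannot be told apart.

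Keratins took a large part of every library, and a larger part in ZnO. The entries taken, krtcap2 and krtcap3 included, held 5.69%, 7.59% and 6.56% of all counts in controls 1 to 3. In ZnO 1 to 3 they held 8.19%, 9.26% and 7.65%. The lowest ZnO library lay just above the highest control, so the groups did not overlap. The means were 6.61% ± 0.954 and 8.37% ± 0.820 (SD, n = 3 each), a difference of 1.76 percentage points. No p-value is given for this sum over chosen genes. An exact permutation test of 3 against 3 libraries cannot go below p = 0.1 in any case. Without krt5_1, the most abundant entry, in either sum, the difference was 1.05 percentage points. With krtcap2 and krtcap3 left out it was 1.76 percentage points.

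Most keratin counts, taken here without krtcap2 and krtcap3, came from a few symbols. The type II gene krt5, an epidermal keratin, held 52.1% ± 0.461 of keratin counts in controls and 51.5% ± 3.14 in ZnO (SD, n = 3 each, both entries summed). The type I gene krt91 held 19.3% ± 1.61 and 21.6% ± 0.733. krt15, which shares its name with a mammalian marker of basal keratinocytes, held 6.52% ± 1.19 and 9.42% ± 2.00. These shares are of counts and are not corrected for transcript length, so they do not rank the genes by number of transcripts. The type II genes krt4, krt5 and krt8 together held 59.4% ± 0.607 of keratin counts in controls and 58.0% ± 1.94 in ZnO. The type II share lay at 59.5%, 58.7% and 55.8% in ZnO 1 to 3, and ZnO 3 was the library that stood clearly below the control range of 58.7% to 59.9%.

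**Figure D1:**
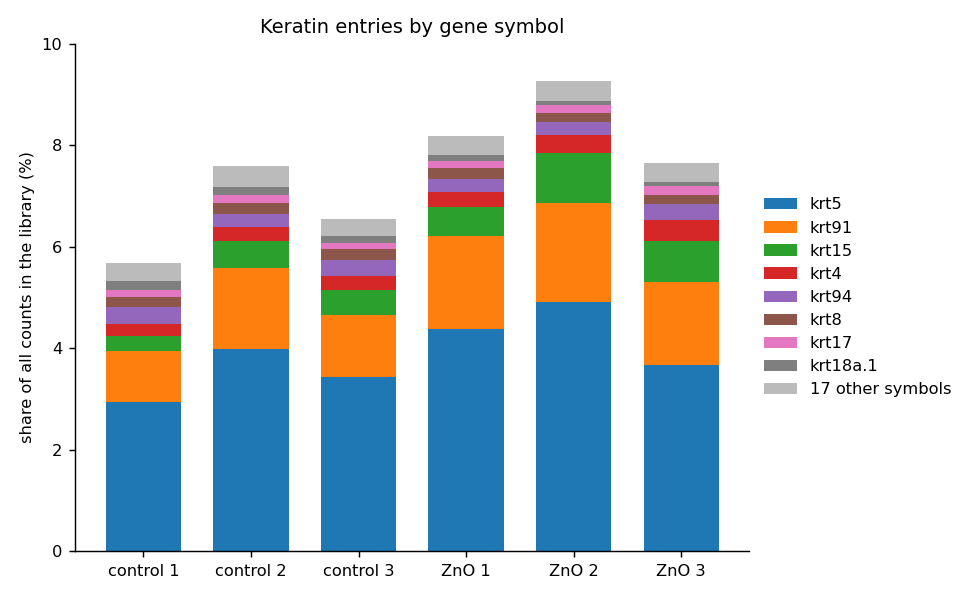
Stacked bars give the share of all counts (%) in each of the 6 libraries that fell in keratin entries, krtcap2 and krtcap3 included. Entries of a symbol are summed. From the bottom up the symbols are krt5, krt91, krt15, krt4, krt94, krt8, krt17 and krt18a.1, and the 17 other symbols are in light grey. Bars reach 5.69% to 7.59% in controls and 7.65% to 9.26% in ZnO, and krt5 is the largest block in each.

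Of the 36 entries, 31 passed the filter on low counts and were tested, 29 of them keratins. By the quasi-likelihood test of edgeR, adjusted by the Benjamini-Hochberg method over all 25962 tested entries, no keratin entry reached an adjusted p under 0.05, where 0.428% of all entries did (0.0963% higher and 0.331% lower). The lowest adjusted p of a member was 0.0819 (krt96). At an unadjusted edgeR p under 0.05 there were 5 keratin entries higher and 4 lower in ZnO, which is 29.0% of the 31 members tested, against 15.9% of all entries (7.72% higher and 8.2% lower). DESeq2, run as an alternative, called 7 of the 31, 3 higher and 4 lower, where it called 4.62% of all entries (1.64% higher and 2.98% lower). The 3 were krt1-19e, krt15 and krt15_1, and the 4 were krt93, krt96, krt18a.1 and krt18a.1_1. Groups did not overlap at 11 of the 31 (35.5%), against 22.5% of all tested entries, and 2 of the 11 were krtcap2 and krtcap3. Over the 31 members the log2 fold change had a median of 0.20, with 19 positive and 12 negative, beside 0.01 for the whole table. The 7 entries carry 5 symbols, all type I, where 23 of the 29 tested keratin entries are type I and 6 are type II.

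**Figure D2:**
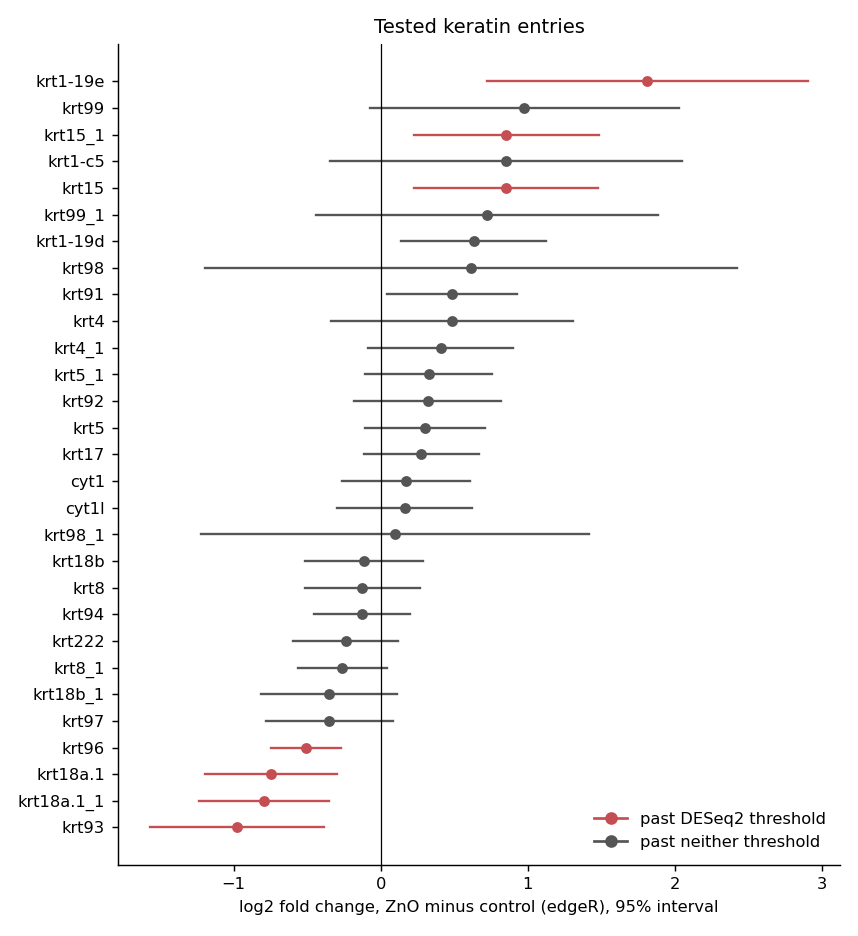
Points are log2 fold changes of ZnO over control for the 29 tested keratin entries, and lines their 95% intervals from edgeR. Red marks the 7 entries past the DESeq2 threshold; none passed the edgeR threshold. Values run from -0.98 (krt93) to 1.81 (krt1-19e).

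krt1-19e, also named krtt1c19e and used as a marker of basal keratinocytes in zebrafish, had the largest difference among the keratins. It stood at 51.4, 181 and 96.6 CPM in controls 1 to 3 and at 288, 423 and 441 CPM in ZnO 1 to 3. Every ZnO library lay well above every control, and the controls differed widely among themselves. The means were 110 ± 65.6 and 384 ± 83.3 CPM (SD, n = 3 each). The log2 fold change was 1.81 ± 0.45 (SE; 95% interval 0.72 to 2.90), which did not pass by edgeR (adjusted p = 0.151) and rose by DESeq2 (adjusted p = 8.16e-05).

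Its neighbour krt1-19d stood at 421, 429 and 353 CPM in controls and at 435, 625 and 803 CPM in ZnO. ZnO 1 was only just above the highest control, and ZnO 3 stood highest. Its log2 fold change was 0.63 ± 0.21 (SE; edgeR adjusted p = 0.215, DESeq2 0.0832).

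krt15 has an entry without and an entry with a suffix, which stood at 941, 1724 and 1521 CPM and at 1992, 3681 and 3273 CPM in controls 1 to 3. In ZnO 1 to 3 they stood at 1821, 3206 and 2519 CPM and at 3981, 6912 and 5281 CPM. Both entries put the libraries in the same order, with control 1 lowest and ZnO 2 highest, and neither overlapped between groups. The entry krt15 held 31.4% to 32.3% of the symbol's counts in every library, so the entries are not separate observations. The log2 fold changes were 0.85 ± 0.27 for each (SE; edgeR adjusted p = 0.195 for each), and both rose by DESeq2 (adjusted p = 0.0344 for krt15 and 0.0331 for krt15_1).

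krt91 stood at 10229, 16074 and 12378 CPM in controls and at 18224, 19712 and 16178 CPM in ZnO. The lowest ZnO library barely exceeded the highest control. This gave a log2 fold change of 0.48 ± 0.19 (SE), with a 95% interval of 0.04 to 0.92, which passed neither edgeR (adjusted p = 0.275) nor DESeq2 (0.150).

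krt5 was the most abundant keratin by counts, chiefly through krt5_1. krt5_1 stood at 25785, 35046 and 30089 CPM in controls and at 38435, 44010 and 31430 CPM in ZnO. ZnO 3 lay within the range of the controls, so the groups overlapped. Its log2 fold change was 0.32 ± 0.19 (SE; edgeR adjusted p = 0.449), with a 95% interval from -0.11 to 0.76, and that of the entry krt5 was 0.30 ± 0.18 (edgeR adjusted p = 0.460).

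krt17 shares its name with a mammalian keratin made by wounded and hyperproliferative epidermis. It stood at 1266, 1583 and 1044 CPM in controls and at 1423, 1668 and 1619 CPM in ZnO. The groups overlapped through control 2, and the log2 fold change was 0.28 ± 0.17 (SE; edgeR adjusted p = 0.480). cyt1, a type I cytokeratin gene known from the enveloping layer of the embryo, lay at 151 to 218 CPM in controls and 170 to 252 CPM in ZnO. cyt1l lay at 167 to 248 CPM and 176 to 276 CPM, and krt92 at 247 to 407 CPM and 313 to 477 CPM. All 3 overlapped between groups and had log2 fold changes of 0.16 to 0.32, with edgeR adjusted p from 0.523 to 0.747.

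**Figure D3:**
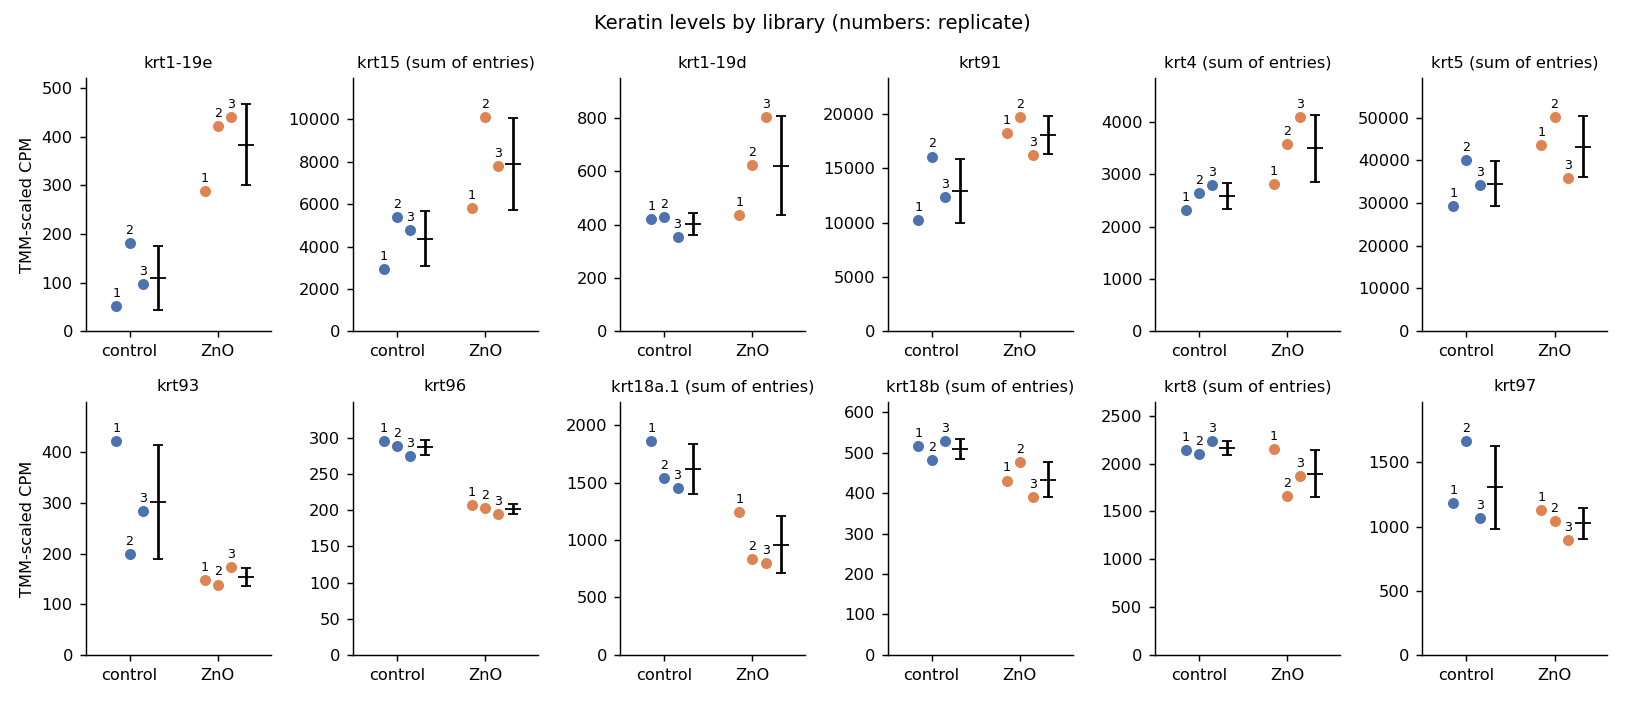
Each panel gives the TMM-scaled CPM of 1 keratin symbol (linear axis from 0) in the 3 control (blue) and 3 ZnO (orange) libraries, numbered by replicate, with the mean and SD in black. In the upper row krt1-19e, krt15, krt1-19d, krt91 and krt4 have all ZnO libraries above all controls and krt5 overlaps. In the lower row krt93, krt96, krt18a.1 and krt18b have all ZnO libraries below all controls, and krt8 and krt97 overlap.

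On the lower side, krt18a.1 is the fish counterpart of keratin 18, the type I partner of krt8 in simple, single-layered epithelia. It stood at 1652, 1360 and 1287 CPM in controls and at 1105, 740 and 714 CPM in ZnO, with all ZnO libraries below all controls and ZnO 1 nearest to them. The log2 fold change was -0.75 ± 0.20 (SE; 95% interval -1.20 to -0.30; edgeR adjusted p = 0.135), and it fell by DESeq2 (adjusted p = 0.0106). The suffixed entry krt18a.1_1, at 163 to 213 CPM in controls and 86.3 to 140 CPM in ZnO, had -0.79 ± 0.19 (edgeR adjusted p = 0.119, DESeq2 0.00757). The entry krt18a.1 held 88.2% to 89.2% of the symbol's counts in every library, so these entries are not separate observations either. Without ZnO 1, krt18a.1 and krt18a.1_1 passed edgeR (log2 fold changes -0.99 and -1.04, adjusted p = 0.0467 and 0.0342). In that fit the calls over all entries went from 111 to 369. With any other library left out neither passed (edgeR adjusted p from 0.231 to 0.337 and from 0.198 to 0.290).

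The partner gene krt8 differed less. Its entries summed stood at 2141, 2103 and 2239 CPM in controls and at 2152, 1665 and 1867 CPM in ZnO. ZnO 1 lay within the controls while ZnO 2 and ZnO 3 lay below them, and the log2 fold change of the sum was -0.19 ± 0.14 (SE; edgeR adjusted p = 0.524, 95% interval -0.50 to 0.12). Per krt8 count there were 0.871, 0.733 and 0.648 krt18a.1 counts in controls and 0.578, 0.502 and 0.429 in ZnO, so this ratio did not overlap between groups. It in part restates the lower krt18a.1 counts. The other ratio taken, krt18b counts per krt4 count, did not overlap either. It was 0.223, 0.182 and 0.190 in controls and 0.153, 0.133 and 0.0955 in ZnO. Whether these ratios differed beyond the spread was not tested.

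krt96, a type I gene, varied little between libraries of a group. It stood at 296, 289 and 275 CPM in controls and at 207, 203 and 194 CPM in ZnO, so the groups were far apart relative to the spread within them. Its log2 fold change was -0.51 ± 0.10 (SE; 95% interval -0.75 to -0.27; edgeR adjusted p = 0.0819), and it fell by DESeq2 (adjusted p = 4.77e-04).

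krt93 stood at 423, 199 and 284 CPM in controls and at 148, 139 and 173 CPM in ZnO. The controls were widely spread, and control 2 was close to ZnO 3. The log2 fold change was -0.98 ± 0.25 (SE; edgeR adjusted p = 0.138), and it fell by DESeq2 (adjusted p = 0.00520). krt97, at 1183, 1669 and 1063 CPM in controls and 1130, 1046 and 896 CPM in ZnO, overlapped between groups through ZnO 1 (log2 fold change -0.35 ± 0.19, SE; edgeR adjusted p = 0.414). krt94, at 3286, 2675 and 3243 CPM in controls and 2606, 2760 and 3066 CPM in ZnO, also overlapped (log2 fold change -0.13 ± 0.14, SE; edgeR adjusted p = 0.719).

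krt4, a type II keratin whose promoter is widely used to drive transgenes in zebrafish skin, and krt18b, a second keratin 18-type gene, looked different by entry and by symbol. The entry krt4 stood at 778, 1448 and 684 CPM in controls and at 858, 1627 and 1579 CPM in ZnO, and krt4_1 at 1542, 1197 and 2107 CPM and at 1962, 1948 and 2517 CPM. Each overlapped between groups, because control 2 was high in the first and low in the second. Summed, krt4 stood at 2320, 2645 and 2790 CPM in controls and at 2821, 3575 and 4096 CPM in ZnO, without overlap. The SE of the log2 fold change went from 0.35 for krt4 and 0.22 for krt4_1 to 0.17 for the sum, whose log2 fold change was 0.43 (95% interval 0.05 to 0.82; edgeR adjusted p = 0.249 over symbols).

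krt18b showed the same in the other direction. Its entries overlapped between groups, with log2 fold changes of -0.12 ± 0.18 and -0.35 ± 0.20 (SE), while the sum stood at 517, 481 and 529 CPM in controls and at 431, 477 and 391 CPM in ZnO. The summed groups were barely separated, control 2 lying just above ZnO 2, and the log2 fold change was -0.24 ± 0.12 (SE; edgeR adjusted p = 0.365). With entries summed, 21 keratin symbols were tested, and at 9 of them, 5 higher and 4 lower, groups did not overlap, against 23.5% of all symbols tested (edgeR called 0 of the 21). The 9 were krt1-19e, krt15, krt1-19d, krt91 and krt4 on the higher side and krt93, krt96, krt18a.1 and krt18b on the lower.

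The division of counts between entries of a symbol fell into 2 kinds. For krt5, krt15 and krt18a.1 the entry without suffix held a nearly fixed part of the symbol's counts, from 11.7% to 12.3%, from 31.4% to 32.3% and from 88.2% to 89.2% over the 6 libraries. For krt4 it held 33.5%, 54.7% and 24.5% in controls and 30.4%, 45.5% and 38.6% in ZnO. For krt18b it held 45.8%, 59.7% and 35.8% in controls and 45.8%, 53.7% and 52.5% in ZnO. Both genes had control 2 highest, ZnO 2 next, ZnO 3 after that and control 3 lowest. krt8 moved as well, from 48.2% to 57.5%, but with control 1 highest and control 2 lowest. The 95% Wilson intervals of the krt4, krt18b and krt8 shares reach at most 0.905 percentage points from the value and cover counting error only. In the RefSeq gene table of assembly GRCz12tu, which is not the build of the counts, krt4 and krt18b lie next to each other with 1 protein-coding gene between them. There krt5, krt8 and krt18a.1 follow each other with 0 such genes between, and of these only the krt8 split moved. Why the split varies between libraries was not tested. The deposited table does not say what the suffix marks.

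**Figure D4:**
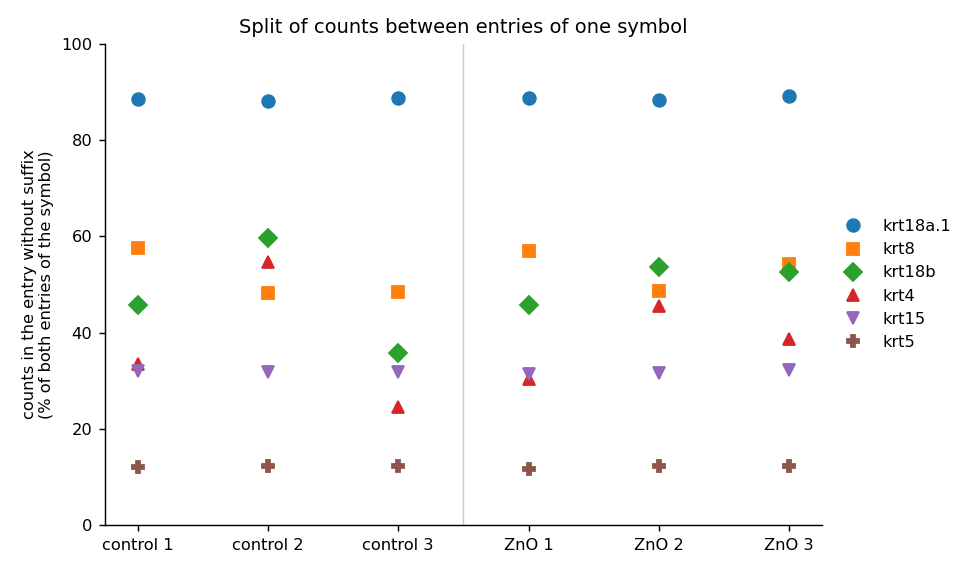
For 6 keratin symbols with an entry without suffix and an entry with the suffix _1, points give the percentage of the symbol's counts in the entry without suffix, in each library. krt18a.1, krt15 and krt5 are level across libraries, and krt4 and krt18b are both highest in control 2 and lowest in control 3.

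Gene order gave a further grouping, taken up after the values were seen. All 25 symbols were found in the RefSeq table, and 5 runs of neighbouring keratin genes could be formed. Of the 21 tested keratin symbols, 13 had positive and 8 negative log2 fold changes. In the run of 7 type I genes krt1-19d, krt1-19e, krt92, cyt1l, cyt1, krt17 and krt91, all 7 log2 fold changes were positive (0.16 to 1.81, median 0.32, entries summed). In the run krt222, krt97 and krt96 all 3 were negative (-0.51 to -0.24). The run krt93, krt94, krt98, krt15 and krt99 held krt93 at -0.98 and krt15 at 0.85, and the run krt5, krt8, krt18a.1 and krt18a.2 held krt5 at 0.32 and krt18a.1 at -0.75. None of these symbols passed by edgeR, and no test was made over a run.

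The remaining members were low or not detected. krt222, a truncated relative of the type I keratins in mammals, lay at 18.4 to 27.5 CPM in controls and 18.9 to 20.7 CPM in ZnO. krt1-c5, krt98, krt98_1, krt99 and krt99_1 lay between 0.126 and 13.8 CPM in every library and had positive log2 fold changes of 0.10 to 0.97 with SE of at least 0.45, and their groups overlapped. krt18a.2 had 1 to 10 counts per library, and krt95_1 had 2 counts in ZnO 2 and 0 elsewhere. krt18a.2_1, krt95 and krt95_2 had 0 counts in all libraries. At 95% confidence a count of 0 still allows an expected count of up to about 3 in a library. These 5 entries were not tested. krtcap2, which in mammals encodes a subunit of the enzyme that attaches sugar chains to proteins, stood at 44.6 ± 1.33 and 40.4 ± 2.24 CPM (SD, n = 3 each), and krtcap3 at 13.0 ± 0.513 and 14.98 ± 0.892 CPM. Neither passed (edgeR adjusted p = 0.536 and 0.455).

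Other genes of the epidermis were counted from lists for comparison, against 15.9% of all entries at an unadjusted edgeR p under 0.05 and 4.62% called by DESeq2. Of 20 tested genes of basal keratinocytes and their anchorage to the basement membrane, 0 passed by edgeR and 1 was higher by DESeq2, with 2 at an unadjusted edgeR p under 0.05 and a median log2 fold change of 0.01. The most abundant, col17a1b, a hemidesmosomal collagen, had 0.12 ± 0.12 (SE). Of 16 genes of desmosomes and plakins, which tie keratin filaments to cell junctions, 0 passed by edgeR and 1 was lower by DESeq2, with 1 at an unadjusted p under 0.05 and a median of -0.25. Its most abundant member, the desmoplakin gene dspa, stood at 2870, 2326 and 2022 CPM in controls and at 2237, 1184 and 2221 CPM in ZnO. ZnO 2 was thus the lowest library, and the summed list was lowest there too, at 5530 CPM against 8321 to 11314 CPM in the other libraries. Groups did not overlap at 3 of the 16 genes (18.8%, against 22.5% of all tested entries). These were pkp1b, pkp2 and cdh1, all lower in ZnO, with pkp1b at -0.85 ± 0.18 (SE; edgeR adjusted p = 0.0879).

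Of 34 tested genes of the upper epidermal layers 0 passed by edgeR and 1 was lower by DESeq2, with 8 (23.5%; 6 higher and 2 lower) at an unadjusted p under 0.05 and a median of 0.00. Its most abundant member icn, a calcium-binding protein gene, stood at 1294, 1734 and 1708 CPM in controls and at 1678, 2979 and 2133 CPM in ZnO. Of 10 tested intermediate filament genes that are not keratins, 0 passed by either tool and 1 had an unadjusted edgeR p under 0.05. Their median was -0.01, and lmna, which encodes the A-type lamins of the nuclear envelope, had -0.25 ± 0.12 (SE). The median over the 29 tested keratin entries was 0.28, and its difference from these 4 lists was not tested.

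Markers of other cell types were summed from 9 lists, in which edgeR called 1 gene, csf3r. Over all 25962 tested entries edgeR called 0.428%, and 13508 log2 fold changes were positive and 12454 negative. Summed neutrophil markers (8 of 10 listed genes had an entry, none at 0 throughout) lay at 555 to 703 CPM in controls and 221 to 328 CPM in ZnO. Most of that sum came from mpx and mmp9. The gene mpx stood at 286, 226 and 185 CPM in controls and at 60.2, 4.71 and 54.1 CPM in ZnO 1 to 3. For mmp9 the averages were 259 CPM in controls and 164 CPM in ZnO. All 8 log2 fold changes were negative, from -2.80 (cpa5) to -0.05 (cxcr2), with nccrp1 at -0.19 ± 0.12 (SE). The neutrophil growth factor receptor gene csf3r fell (log2 fold change -1.43, edgeR adjusted p = 0.0496). That call held by DESeq2 (adjusted p = 8.99e-07) and limma-voom (0.0494), and by edgeR with scaling without keratin entries (0.0494), no filter (0.0184) or without ZnO 1 (0.0121). It was lost with all libraries under DESeq2 size factors (0.0521), upper quartile scaling (0.0545), entries summed per symbol (0.0568) and a minimum count of 50 (0.0590). It was lost at 0.114 when blocked by replicate number. It was also lost, at adjusted p of 0.0892 to 0.171, without control 1, control 2, control 3, ZnO 2 or ZnO 3. Summed macrophage markers (8 of 10) lay at 2044 to 2655 and 1501 to 2064 CPM and were mostly cd74a, the MHC class II chaperone gene, at -0.38 ± 0.17 (log2 fold change, SE). All 8 macrophage log2 fold changes were negative. Erythrocyte markers (10 of 10) lay at 27.1 to 147 and 146 to 384 CPM, all 10 positive, with the globin gene hbba1 at 1.56 ± 0.73.

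In several of the other lists 1 or 2 genes made up most of the sum or of its difference. Mucous cell markers (8 of 9) lay at 90.4 to 140 and 139 to 298 CPM. The mucin genes muc5.1 and muc5.2 had log2 fold changes of 1.68 ± 0.57 and 2.34 ± 0.85 (SE; edgeR adjusted p = 0.252 and 0.282) and overlapped between groups, while the most abundant member galnt12 had 0.09 ± 0.12 and muc2.1 and spdef had -0.49 and -0.45. Ionocyte markers (10 of 10) lay at 328 to 598 and 599 to 793 CPM, nearly all of it the carbonic anhydrase gene ca2 at 448 and 643 CPM on average. Of the 10, 4 were tested; atp6v1aa, a proton pump subunit gene, had -0.55 ± 0.10 (edgeR adjusted p = 0.0682) with all ZnO libraries below all controls, and foxi3a, foxi3b, trpv6 and rhcgb stayed under 1 CPM.

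Blastema mesenchyme markers (9 of 10) lay at 5394 to 6033 and 3252 to 5237 CPM, mostly from the fibronectin gene fn1b (-0.43 ± 0.37) and the collagen gene col12a1a (-0.84 ± 0.23). Of the 9, 5 had negative and 4 positive log2 fold changes, the latter msx1b at 0.18, msx2b at 0.04, twist1a at 0.51 and prrx1b at 0.32. Osteoblast markers (9 of 10) lay at 5210 to 7978 and 7106 to 8641 CPM, mostly from col10a1a, a collagen gene of fin bone (0.23 ± 0.19). Endothelial markers (7 of 10) lay at 55.7 to 64.1 and 50.1 to 61.1 CPM, with flt4 at -0.09 ± 0.17. Pigment cell markers (10 of 10) lay at 55.9 to 76.9 and 73.1 to 156 CPM, with the melanin synthesis gene tyrp1b at 0.97 ± 0.31. Of the 10, 8 had positive and 2 negative log2 fold changes, the latter xdh at -0.58 and pnp4a at -0.33. DESeq2 called 4 of 8 tested neutrophil genes, 1 of 8 macrophage, 1 of 4 ionocyte and 1 of 9 blastema genes lower. It called 4 of 10 erythrocyte, 2 of 9 osteoblast and 3 of 10 pigment cell genes higher, and none of 8 mucous cell or 6 endothelial genes. Over the whole table it called 4.62% of entries, 1.64% higher and 2.98% lower. Members named here beyond the most abundant of a list were chosen after their values were seen. The part of these values in the keratin levels was not tested.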

How the data were processed

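Poly(A) RNA of fin tissue was sequenced as paired reads, per the labels' protocols. The values deposited by the authors are raw, unnormalized counts for each gene entry in 6 libraries. The submitters' processing notes name cutadapt, BWA, HTSeq, DESeq2 and the build GRCz11. Versions, annotation, strand setting and the handling of reads that match several places are not stated there or in the labels, so the division of counts between near-identical keratins, and between entries of a symbol, is uncertain. All 6 columns were matched to samples by library name, and 0 were left unmapped.

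The edgeR function filterByExpr (minimum count 10) kept 25962 of 53709 entries. Libraries were scaled with TMM (factors from 0.981 to 1.02), and groups were compared by a robust quasi-likelihood fit without covariates, adjusted by the Benjamini-Hochberg method. The SE of a log2 fold change was worked back from this test, as its absolute value divided by the square root of the F statistic. The 95% intervals of log2 fold changes were built from that SE. CPM of every entry used the full library total times the TMM factor. Shares with Wilson intervals (95%) and ratios used raw counts. Members, lists and naming rule were chosen with earlier results of these data known. The naming rule took keratin entries with a mean of at least 100 CPM, any past the edgeR threshold and the 5 with the smallest p in each direction. Others are named to account for every member. From each list it took up to 3 members past the threshold or the most abundant one. Tissue markers, and the ratios, sums and gene order of keratins, were chosen after values were seen. RefSeq (GRCz12tu) served for names and order only. No library was a duplicate.

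Alternatives were DESeq2, limma-voom, other scalings and filters, a replicate block, entries summed per symbol and each library left out. On simulated counts for ZnO against control, with 50 entries per size drawn from higher counts, the edgeR step recovered 16% at a 1.5-fold change, 76% at 2-fold and 100% at 4-fold. Each simulated entry was given the typical spread of entries at its count level, so these rates do not cover entries that vary more. Software was Python 3.11.15 (scipy 1.17.1, numpy 2.4.6, pandas 2.3.3, matplotlib 3.10.9) and R 4.3.3 (DESeq2 1.42.0, limma 3.58.1, edgeR 4.0.16).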

Additional observations from a re-analysis of the deposited data

How the results depend on the processing

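No keratin entry passed the edgeR threshold in either direction, and this count changed under 3 settings: DESeq2 called 3 higher and 4 lower, leaving out ZnO 1 gave 2 lower, and an adjusted p under 0.10 gave 1 lower (krt96). Over the 6 libraries left out in turn the count of higher entries was 0 throughout and that of lower entries ran from 0 to 2. Over all entries edgeR called 111, against 1199 by DESeq2, 405 without a filter, 76 by limma-voom, 67 with a minimum count of 50, and 12 (without ZnO 3) to 369 (without ZnO 1) with 1 library left out. With the replicate number as a block the count of keratin entries was 0 in both directions, with a lowest adjusted p of 0.0747, and 32 entries in all were called. Deviations of same-numbered libraries correlated at 0.01, -0.05 and 0.08, and those of differently numbered ones at -0.18 to 0.16. No pairing by number was thus seen, though so few libraries cannot exclude one. Among 345 alternative values for 23 named entries 334 kept direction and side of the threshold, 9 passed it (7 by DESeq2, 2 without ZnO 1) and 2 near 0 changed sign: with 1 library left out, krt18b ran from -0.26 (without control 3) to 0.042 (without control 2), and krt8 from -0.30 (without ZnO 1) to 0.00134 (without ZnO 2), with edgeR adjusted p = 0.946 and 0.998 at the changed signs. The difference in keratin share lay between 1.29 and 2.25 percentage points with 1 library left out and between 1.05 and 1.76 with other totals or members. In simulation most 1.5-fold changes were missed at this number of libraries. Entries that vary more than is typical at their count level were not simulated, and larger changes can be missed there.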
